A study of Mus musculus with 16 samples.

Results

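The change from embryonic stem cells (ESCs) to early embryoid bodies (EBs) was examined in mouse cells that lack the TFIID subunit TAF4. It is the comparison of the 2 Taf4a-/- EB4 libraries with the 2 Taf4a-/- ES libraries, taken over all genes. These are 4 of the 16 libraries of the series, chosen by their labels and not by any measured value. The table held 27807 genes, of which 16124 had a mean of at least 10 normalised counts over the 16 libraries and were tested. The ESCs were grown on inactivated fibroblast feeders with LIF and serum. EB4 are floating aggregates collected before retinoic acid, the agent that then directs them to the neural lineage, was added. The remaining groups were Taf4a-/- EB5 and EB8, sampled after retinoic acid, and WT (Taf4+/+) cells at the same 4 stages, each with 2 libraries. The study describes 2 independent lines of each genotype, derived from blastocysts, and the labels do not say which line a replicate number stands for. The study's methods describe feeder depletion before spontaneous EB formation, and for the ES libraries the sources used here do not give whether feeders were removed.

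TFIID is the general transcription factor that recognises core promoters, and TAF4 is one of the subunits that hold its core together. ESCs in serum are held in the pluripotent state by LIF, which acts through the JAK kinases and the transcription factor STAT3. When LIF and feeders are withdrawn, cells normally lose the naive pluripotency factors first, pass through a formative state marked by Fgf5 and Otx2, and then acquire markers of the germ layers. Cells answer low oxygen through the HIF transcription factors, which turn on glycolytic enzymes and glucose transporters, and early embryonic cells lean strongly on glycolysis.

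The 4 libraries held 36230420 and 40711826 reads in genes (ES replicates 1 and 2) and 23795345 and 22613253 (EB4 replicates 1 and 2). All ES libraries of the series were deeper than all EB libraries, so that stage and sequencing cannot be told apart. Taf4a itself read 2400.0 and 2388 in ES and 2369 and 2056 in EB4 (log2 change -0.12 ± 0.15 (SE), adjusted p = 0.718). A count over the whole gene does not show whether its deleted part was lost, so this level does not check the genotype labels. ESC identity was checked on Pou5f1, Nanog and Sox2, which together with 7 other core pluripotency genes summed to 147309 and 153020.0 normalised counts in ES and 111567 and 131591 in EB4. EB4 replicate 2 stood apart in base composition. With genes in 4 equal bins of GC content, its median deviation from the mean of the 8 ES and EB4 libraries of both genotypes was 0.149 in the lowest bin and -0.282 in the highest (log2 scale). The same deviation of X-linked genes was 0.308 and 0.513 in replicate 2 of Taf4a-/- ES and EB4, and -0.244 and -0.265 in replicate 1. In WT it was -0.261 and 0.427 in ES replicates 1 and 2, and -0.269 and -0.186 in EB4 replicates 1 and 2. Genes of chromosome 8 stood at 0.429 in WT EB4 replicate 1 and at -0.085 in replicate 2. The part of these differences in the changes of either genotype was not tested.

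In Taf4a-/- cells 404 genes rose and 160 fell between ES and EB4 (limma on log2(normalised count + 1), adjusted p under 0.05), which is 3.50% of the genes tested, 2.51% up and 0.992% down. The median fold change was 2.78 among the genes that rose and 2.18 among those that fell. Of the 564 genes, 409 changed by at least 1 on the log2 scale. The median change of all genes tested was -0.01. The values had been scaled between libraries before deposit, so this median does not check that scaling. The median difference between the 2 replicates of a gene was 0.246 in ES and 0.309 in EB4 on the log2 scale, against a median SE of the change of 0.330. Both EB4 values lay above both ES values for 28.1% of the genes tested and below both for 28.2%. The number of calls rested on each library. It was 61 without ES replicate 1, 45 without ES replicate 2, 2 without EB4 replicate 1 and 81 without EB4 replicate 2. No gene among the 564 changed direction in any of these 4 fits. A gene whose stages do not overlap cannot change direction when 1 library is dropped. All 477 called genes with a mean of at least 100 were of that kind, so this gives no further check of the calls. Correcting for GC content and gene length, an alternative chosen after the data were seen, left 283 calls (1.93% of the genes with a GC value). Of the 547 called genes that have a GC value, 243 were still called.

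**Figure D1:**
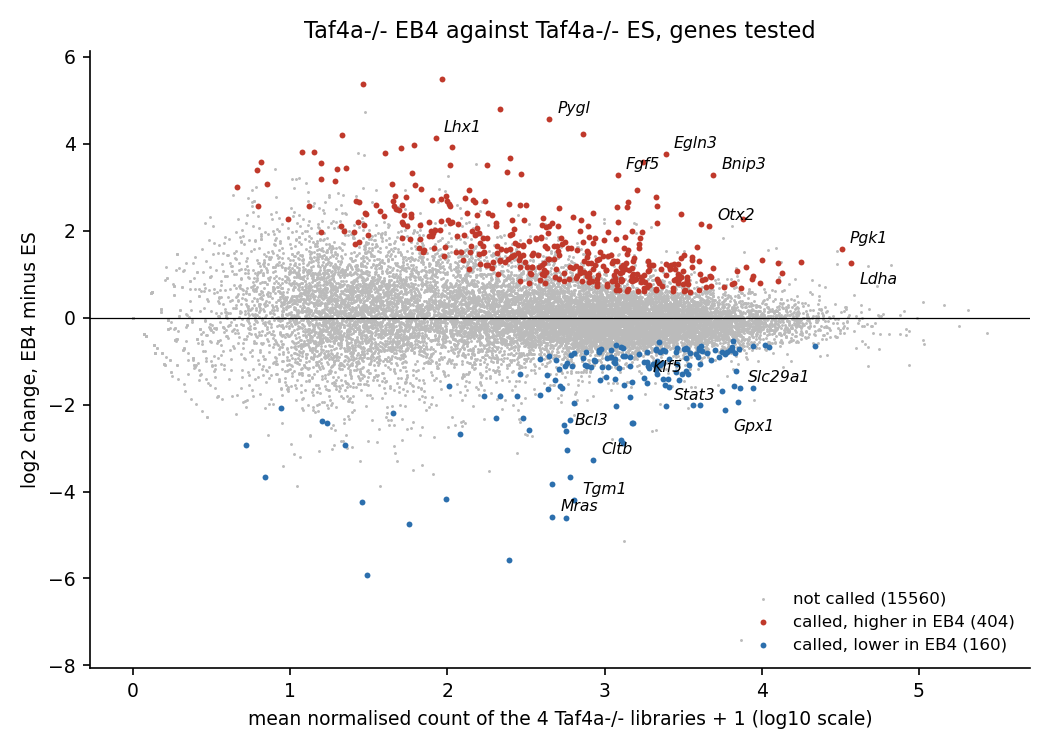
Each point is a gene tested, with the mean normalised count of the 4 Taf4a-/- libraries plus 1 on a log10 axis and the log2 change from ES to EB4 on the vertical axis. The 404 genes called higher in EB4 are red and the 160 called lower are blue. Egln3 (3.75), Pygl (4.56) and Bnip3 (3.27) stand high, while Mras (-4.59) and Tgm1 (-4.19) stand low.

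The group of known genes with the most calls was that of hypoxia response and glycolysis. Of its 22 members, all tested, 8 rose and none fell (limma, beside 2.51% of all genes up). The remaining 14 were not called, and all 22 had a positive change, with a median of 1.38 on the log2 scale against -0.01 for all genes. In 21 of 22 both EB4 values lay above both ES values, an arrangement seen for 28.1% of genes. Summed over the list, ES libraries held 402283 and 354465 normalised counts and EB4 libraries 697356 and 709801. The list was drawn up with earlier results of these data known.

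Promoter sequences of 4 of the 8 genes that rose are shown because the HIF factors bind a short core, ACGTG or GCGTG, and these windows hold it. Each is the 250 bases before a transcription start from RefSeq, build GRCm38.p6, written 5′ to 3′ on the strand of the gene, with every ACGTG or GCGTG on either strand in capitals. Where a CACGTG palindrome stands, the core is read on both strands and the matches overlap. The windows are at chr7:138909507-138909756 for Bnip3, chrX:106186850-106187099 for Pgk1, chr7:46845554-46845803 for the first of 2 Ldha starts and chr12:54203875-54204124 for Egln3.
Bnip3: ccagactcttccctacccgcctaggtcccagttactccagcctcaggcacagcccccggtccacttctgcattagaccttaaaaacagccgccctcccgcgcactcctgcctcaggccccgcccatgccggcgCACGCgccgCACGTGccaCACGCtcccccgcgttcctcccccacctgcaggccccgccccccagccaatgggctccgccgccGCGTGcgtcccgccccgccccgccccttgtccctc
Pgk1: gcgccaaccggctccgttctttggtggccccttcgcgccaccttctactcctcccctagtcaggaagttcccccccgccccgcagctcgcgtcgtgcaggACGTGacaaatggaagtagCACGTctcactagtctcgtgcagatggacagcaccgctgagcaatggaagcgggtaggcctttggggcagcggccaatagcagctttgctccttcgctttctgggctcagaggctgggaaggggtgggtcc
Ldha: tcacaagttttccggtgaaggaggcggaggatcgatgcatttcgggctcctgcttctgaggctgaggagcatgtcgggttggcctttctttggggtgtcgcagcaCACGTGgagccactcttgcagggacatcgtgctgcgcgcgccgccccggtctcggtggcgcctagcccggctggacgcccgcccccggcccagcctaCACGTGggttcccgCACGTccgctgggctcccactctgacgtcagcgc
Egln3: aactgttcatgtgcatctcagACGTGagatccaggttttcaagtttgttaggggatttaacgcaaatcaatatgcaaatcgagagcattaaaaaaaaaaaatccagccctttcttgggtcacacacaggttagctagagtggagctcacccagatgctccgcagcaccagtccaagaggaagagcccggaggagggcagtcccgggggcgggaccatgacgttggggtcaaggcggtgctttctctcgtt
ACGTG on either strand was present in 16.6% of the 32851 RefSeq promoter windows of this length, GCGTG in 28.2%, and at least 1 of them in 38.6%. Of the 8 genes that rose, 7 had an entry in this collection, and ACGTG was present in 6 of their 8 windows. The other members of the list had 21 windows, of which 7 held ACGTG. These counts leave out GCGTG. The windows of Pfkl and of the second Ldha start, which lack ACGTG, held GCGTG. Windows of members that were not called held GCGTG without ACGTG too, such as those of Adm, Gapdh and Pfkp, while that of Gpi1 held neither. A difference between risen and other members was not tested. A match describes the letters only and does not show that a factor was bound.

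Within the list Egln3, Ndrg1 and Bnip3 had the largest changes of the genes that rose. Egln3, a prolyl hydroxylase that marks HIF for destruction and is itself a HIF target (chr12:55279968-55304847, NCBI37/mm9), read 334 and 339 in ES and 4304 and 4792 in EB4. Both EB4 libraries were more than 10 times either ES library, and the log2 change was 3.75 ± 0.52 (SE) (adjusted p = 0.00582). Ndrg1, a stress-response gene (chr15:66760883-66801202), read 254 and 282 in ES and 2859 and 3614 in EB4, without overlap (log2 change 3.58 ± 0.79, adjusted p = 0.0323). A predicted gene, Gm2895, overlaps Ndrg1 on the annotation, and reads of both cannot be told apart where they overlap. Bnip3, a mitochondrial receptor for autophagy (chr7:146082519-146101202), read 1234 and 677 in ES and 8399 and 9275 in EB4. Its 2 ES values differed from one another more than its EB4 values did, and the groups did not overlap (log2 change 3.27 ± 0.53, adjusted p = 0.011). Ankrd37, a small HIF target, read 112 and 99.3 in ES and 500.0 and 507 in EB4 and rose by a log2 change of 2.24 ± 0.48 (SE) (adjusted p = 0.0304). P4ha1, which hydroxylates collagen, read 797 and 492 in ES and 3674 and 3708 in EB4 and rose as well (log2 change 2.56 ± 0.53, adjusted p = 0.0259).

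Among the enzymes of glycolysis, Pgk1, Ldha and Pfkl rose. Pgk1, the X-linked phosphoglycerate kinase (chrX:103382439-103399038), read 14041 and 17767 in ES and 36705 and 60434 in EB4. Replicate 2 was the higher library at both stages, as it was for X-linked genes in general, and the change within each replicate was upward (log2 change 1.58 ± 0.32, adjusted p = 0.0253). Ldha, which makes lactate from pyruvate (chr7:54096845-54110997), read 24149 and 19562 in ES and 53609.8 and 50577 in EB4 (log2 change 1.26 ± 0.28, adjusted p = 0.0339). Pfkl, a phosphofructokinase, read 8839 and 6377 in ES and 18575 and 17040.3 in EB4 (log2 change 1.24 ± 0.28, adjusted p = 0.0339). For both genes the stages did not overlap. Tpi1, triose phosphate isomerase, was not on the list but was among the genes with the largest rise in counts, and it read 12424 and 8754 in ES and 25287 and 24965 in EB4 (log2 change 1.27 ± 0.28, adjusted p = 0.0337). The members that were not called included the glucose transporters Slc2a1, at 18786 and 12649 in ES and 52016 and 37598 in EB4 (adjusted p = 0.0775), and Slc2a3, at 46470.0 and 33825 in ES and 85103 and 99066 in EB4 (adjusted p = 0.11). Vegfa, the angiogenic growth factor, read 613 and 896 in ES and 2840.0 and 3519.6 in EB4 (adjusted p = 0.0776), and Adm, adrenomedullin, 34.0 and 13.6 in ES and 172 and 165 in EB4 (adjusted p = 0.0646). In each of these 4 genes both EB4 values lay above both ES values, without passing the test. Gapdh, at 40524 and 36567 in ES and 46069 and 47277 in EB4, and Pkm2, at 135253 and 123344 in ES and 166486 and 151569 in EB4, moved least, with log2 changes of 0.28 and 0.30. All 8 calls were kept after the correction for GC content and length. Without EB4 replicate 1 none of the 8 was called, and with any other library left out 1 or 2 were called, Egln3 each time.

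**Figure D2:**
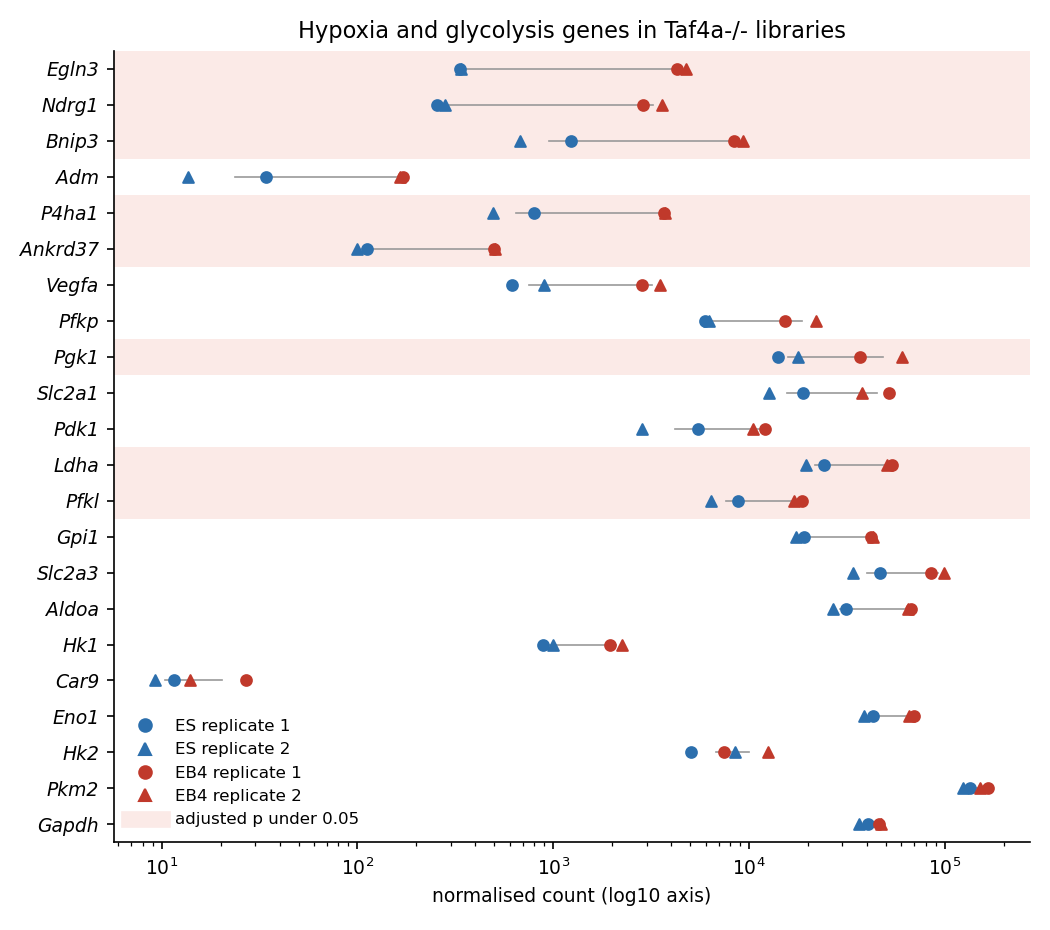
Normalised counts (log10 axis) of the 22 hypoxia and glycolysis genes in the 4 Taf4a-/- libraries, ordered by log2 change, with lines that join the group means. Shaded genes had an adjusted p under 0.05. ES points (blue) lie left of EB4 points (red) for every gene but Hk2, whose ES replicate 2 (8474) lies above EB4 replicate 1 (7463).

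Several of the largest rises lay outside any list. Ndufa4l2, which dampens mitochondrial respiration under low oxygen (chr10:126951995-126954208), read 15.8 and 12.2 in ES and 404 and 422 in EB4 (log2 change 4.80 ± 0.80, adjusted p = 0.0129). It overlaps Shmt2 on the opposite strand, and the use of strand in counting is not given in the sources used here. Shmt2 itself read 4322 and 5299.6 in ES and 4471 and 4574 in EB4, where a shift of the size seen in Ndufa4l2 would lie within the difference between its ES replicates. Pygl, liver glycogen phosphorylase (chr12:71291798-71332475), read 30.7 and 40.0 in ES and 758 and 948 in EB4 (log2 change 4.56 ± 0.56, adjusted p = 0.00376). A2m, the protease inhibitor alpha-2-macroglobulin, read 66.4 and 78.6 in ES and 1271 and 1482 in EB4 (log2 change 4.23 ± 0.52, adjusted p = 0.00376). In Ndufa4l2, Pygl and A2m the EB4 replicates differed far less from one another than from ES. Ero1l, an oxidase that forms disulfide bonds in the endoplasmic reticulum, read 3319.8 and 2017 in ES and 12885 and 12114 in EB4 (log2 change 2.27 ± 0.46, adjusted p = 0.0253). After correction for GC content and length its adjusted p was 0.0597.

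The rest of the 10 largest rises held genes of varied roles. Car14, a membrane carbonic anhydrase, read 33.2 and 30.0 in ES and 694 and 244 in EB4 (log2 change 3.66 ± 0.52, adjusted p = 0.0069), with EB4 replicate 1 well above replicate 2. Vldlr, the very low density lipoprotein receptor, read 36.5 and 47.2 in ES and 437 and 430.1 in EB4, with close replicates at both stages (log2 change 3.35 ± 0.49, adjusted p = 0.00702). Grin1, a subunit of the NMDA glutamate receptor, read 14.9 and 16.4 in ES and 199.8 and 177 in EB4 (log2 change 3.50 ± 0.54, adjusted p = 0.0091). Zc3h6, a zinc finger gene, read 26.6 and 29.3 in ES and 342 and 313 in EB4 (log2 change 3.51 ± 0.82, adjusted p = 0.038), and its adjusted p was 0.0642 after the GC and length correction. Capn6, an X-linked member of the calpain family, read 5.81 and 23.6 in ES and 175 and 218 in EB4 (log2 change 3.92 ± 0.75, adjusted p = 0.0207). Its ES replicates differed about 4-fold and both lay near the low end of the counts.

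LIF signalling genes moved in both directions. Of 16 tested members of the LIF and Stat3 list, Jak1 and Jak2 rose and Stat3 and Bcl3 fell (limma, beside 2.51% of all genes up and 0.992% down), with a median change of -0.35. Stat3, the transcription factor at the end of the pathway (chr11:100746412-100800854), read 4699 and 3181 in ES and 1050.3 and 836 in EB4. Both EB4 values were far below both ES values (log2 change -2.04 ± 0.27, adjusted p = 0.00421). Bcl3, a STAT3 target that acts with NF-kappaB, read 947 and 999.9 in ES and 147 and 169.7 in EB4 (log2 change -2.61 ± 0.52, adjusted p = 0.0234). Jak1, the kinase bound to the LIF receptor complex, read 1654 and 1608 in ES and 2465 and 2723 in EB4 (log2 change 0.67 ± 0.15, adjusted p = 0.0347), and Jak2 read 159 and 122 in ES and 354 and 378 in EB4 (log2 change 1.39 ± 0.32, adjusted p = 0.0364). The adjusted p of Jak1 and Jak2 was 0.15 and 0.0979 after the GC and length correction, while Stat3 and Bcl3 were still called at 0.00456 and 0.0484. Stat3 was called also without ES replicate 1, ES replicate 2 or EB4 replicate 2. Stat5a overlaps Stat3 on the annotation.

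Of the 12 members that were not called, 8 had the lower and 4 the higher mean in EB4. Socs3, the feedback inhibitor induced by STAT3, read 2196 and 1702 in ES and 311 and 246 in EB4 (log2 change -2.80 ± 0.78 (SE), adjusted p = 0.0688). Icam1, an adhesion molecule, read 1593 and 1754 in ES and 533 and 649.6 in EB4 (adjusted p = 0.0504), just above the threshold. Pim3, a kinase that favours self-renewal, read 5388 and 5583 in ES and 2657 and 2168 in EB4 (adjusted p = 0.0718). In these 3 genes both EB4 values lay below both ES values, as in 7 of the 16 members of the list (28.2% of all genes). In 5 of the 16 both lay above (28.1% of all genes). The receptor subunits Lifr, at 1630.4 and 1239 in ES and 1819 and 2049 in EB4 (adjusted p = 0.151), and Il6st, at 3143 and 2488 in ES and 3117 and 4116 in EB4 (adjusted p = 0.321), were not called, and the Il6st groups overlapped.

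Core pluripotency genes were not called in either direction, where 3.50% of all genes were called. For 9 of 10 members the fitted EB4 mean was the lower, with a median change of -0.25. In 2 of 10 both EB4 values lay below both ES values (28.2% of all genes). Pou5f1, which encodes OCT4, read 30812 and 36606 in ES and 17374 and 19545 in EB4 (log2 change -0.87 ± 0.38 (SE), adjusted p = 0.211). Nanog read 18212 and 16742 in ES and 12278 and 18551 in EB4 and Sox2 17044 and 14370.1 in ES and 14329.7 and 12410.5 in EB4. Only Pou5f1 and Sox2 had both EB4 values below both ES values. In Nanog, Dppa4 and Tdgf1 EB4 replicate 2 was at or near the ES level while replicate 1 was lower. Sall4, at 9445 and 9820.2 in ES and 10263 and 9399 in EB4, and Lin28a, at 13427 and 11714 in ES and 12695 and 10401 in EB4, overlapped between the stages.

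Of the 14 naive pluripotency genes only Klf5 was called in the main test (0.992% of all genes down). With the replicate number as a block within genotype 4 fell, beside 484 of all genes. In DESeq2 4 fell, beside 661 of all genes. The list had a median change of -0.71, with 12 of 14 lower in EB4 and 8 of 14 below both ES values (28.2% of all genes). Klf5, a Kruppel-like factor that sustains self-renewal (chr14:99697910-99712624), read 2512 and 2642 in ES and 938 and 1026 in EB4 (log2 change -1.39 ± 0.28, adjusted p = 0.0245), with an adjusted p of 0.0563 after the GC and length correction. Klf4 read 5475 and 5538 in ES and 1231 and 1392 in EB4 and Gbx2 read 580.3 and 526 in ES and 92.3 and 77.8 in EB4. These were the largest changes of the list, at -2.07 and -2.69. Their fitted spread, which is estimated over all 8 groups and not over these 4 libraries alone, was wider, and the adjusted p was 0.0654 and 0.0951. Nr0b1, an X-linked nuclear receptor, read 4579.9 and 5042 in ES and 1987 and 2269 in EB4 (adjusted p = 0.15). Tfcp2l1 read 14788 and 14795 in ES and 6509 and 10854 in EB4 and Esrrb 18717 and 17523 in ES and 10906 and 14100.1 in EB4. EB4 replicate 1 was the lower of the EB4 libraries for both of these genes. Fgf4, Prdm14 and Dppa3 overlapped between the stages, as Prdm14 shows at 777 and 859 in ES and 624 and 1317 in EB4.

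Of 17 tested genes of the formative and primed epiblast 3 rose and none fell (2.51% of all genes up). The list had a median change of 0.87, and both EB4 values lay above both ES values in 11 of 17 (28.1% of all genes). Fgf5, the growth factor used to mark the formative epiblast (chr5:98683203-98706049), read 129.5 and 359.5 in ES and 2751 and 1589 in EB4. The lower EB4 value was several times the higher ES value (log2 change 3.27 ± 0.47, adjusted p = 0.0069). Otx2, a homeobox factor of the epiblast and forebrain (chr14:49277354-49287319), read 1742 and 1722 in ES and 7699 and 7268 in EB4, with close replicates (log2 change 2.11 ± 0.53, adjusted p = 0.0478). Its adjusted p was 0.0642 after the GC and length correction. Zic2, a zinc finger factor, read 2193 and 1043 in ES and 6832 and 2793 in EB4 (adjusted p = 0.109), and Sall2 read 639 and 645 in ES and 2305 and 1372 in EB4 (adjusted p = 0.0796). Sox3 read 61.4 and 170.1 in ES and 304 and 168 in EB4 and overlapped between the stages. Foxd3, at 1078 and 1058 in ES and 1221 and 369 in EB4, and Cdh2 had negative changes that were not called. Pou3f1 was under the filter, with at most 7.01 normalised counts in the 4 libraries.

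Dnmt3a was the third call of that list and the only one among 10 genes of DNA methylation (2.51% of all genes up and 0.992% down). Dnmt3a, a de novo DNA methyltransferase (chr12:3806007-3914443), read 4542 and 7069 in ES and 13149.8 and 15429.9 in EB4. Both EB4 values lay well above both ES values (log2 change 1.33 ± 0.23, adjusted p = 0.0136), and the adjusted p was 0.0584 after the GC and length correction. Dnmt3b, its relative, read 15608 and 13301 in ES and 33654 and 20473 in EB4 (adjusted p = 0.221), and Dnmt3l, their catalytically inactive partner, read 6356 and 10182 in ES and 6735 and 10489.9 in EB4 (adjusted p = 0.967). Dnmt3l overlapped between the stages, with replicate 2 the higher at both. Dnmt1, the maintenance enzyme, read 14364 and 14515 in ES and 9019 and 10371 in EB4 (adjusted p = 0.0646), and its cofactor Uhrf1 read 13073 and 14995 in ES and 9101 and 9454 in EB4 (adjusted p = 0.059). Tet1 and Tet2, which oxidise methylcytosine, overlapped between the stages.

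**Figure D3:**
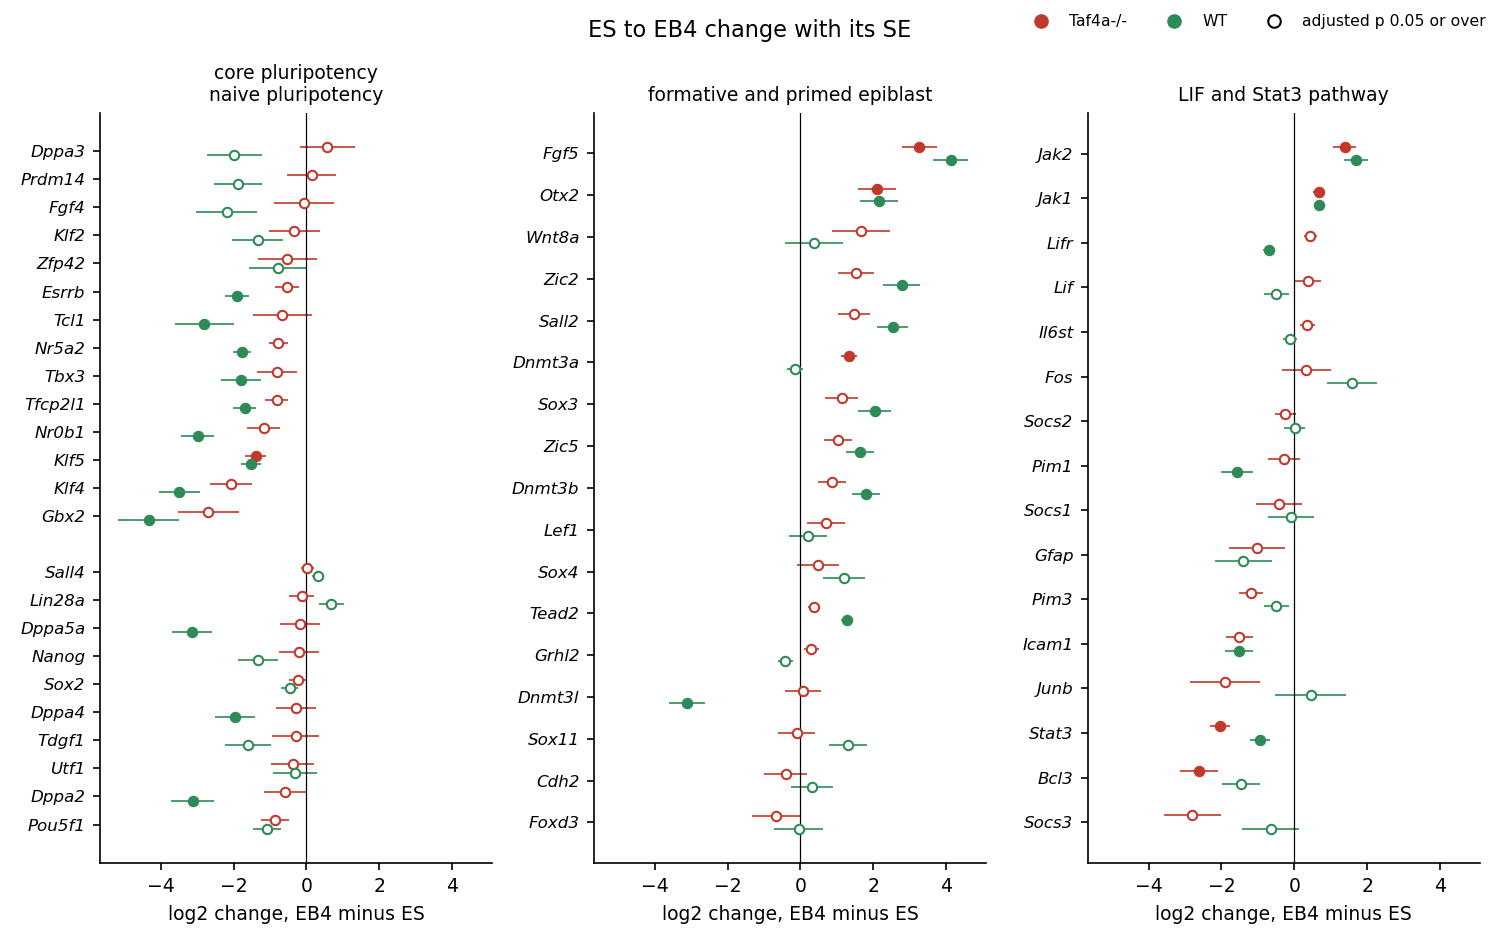
Log2 change from ES to EB4 with its standard error, for Taf4a-/- (red) and WT (green) cells, in 4 lists of pluripotency, epiblast and LIF genes. Filled points had an adjusted p under 0.05. In Taf4a-/- cells Klf5 (-1.39), Stat3 (-2.04) and Bcl3 (-2.61) are filled on the left, and Fgf5 (3.27), Otx2 (2.11) and Dnmt3a (1.33) on the right.

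Each signalling list gave few calls in number, beside 2.51% of all genes up and 0.992% down. None of 13 tested ERK feedback genes was called, with a median change of 0.04. Etv4, an ETS factor induced by FGF, read 3445 and 3701 in ES and 1096 and 749 in EB4 (adjusted p = 0.0579), and Dusp4, a phosphatase that limits ERK, read 849 and 655 in ES and 3395 and 1217 in EB4 (adjusted p = 0.166). Etv4 and Dusp4 thus stood at opposite ends of the list without passing the test. Of 11 Nodal and Lefty genes Skil, a repressor of SMAD signalling, rose, with 4597 and 5199 in ES and 9874 and 12228 in EB4 (log2 change 1.17 ± 0.23, adjusted p = 0.0234, 0.074 after the GC and length correction). Nodal read 2099 and 3101 in ES and 1605 and 2093 in EB4 and Lefty1 2236 and 3911 in ES and 1002 and 1429 in EB4, and Lefty1 had no overlap between stages (adjusted p = 0.318). Of 14 BMP and Id genes 1 rose and 1 fell. Bmp7, a BMP ligand, read 67.2 and 87.9 in ES and 239 and 314 in EB4 (log2 change 1.82 ± 0.40, adjusted p = 0.032). Id2, an inhibitor of differentiation that BMP induces, read 1166 and 951 in ES and 436 and 547 in EB4 (log2 change -1.11 ± 0.25, adjusted p = 0.0351, 0.0649 after the correction). Of 18 Wnt pathway genes Tcf7, a nuclear effector of beta-catenin, rose, with 2052 and 1450.2 in ES and 4948 and 3346 in EB4 (log2 change 1.24 ± 0.27, adjusted p = 0.0323). The median change of the Wnt list was 0.53. Notum, which inactivates Wnt ligands, read 1212 and 904 in ES and 183 and 269 in EB4 (adjusted p = 0.0511).

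Primitive streak and mesoderm genes summed to a higher level in EB4 replicate 1 than in replicate 2. Lhx1 and Eomes rose among 17 tested members and none fell (2.51% of all genes up and 0.992% down), and the median change was 0.84. Lhx1, a LIM homeobox factor of the node and mesendoderm, read 4.98 and 8.58 in ES and 251 and 67.6 in EB4 (log2 change 4.12 ± 0.86, adjusted p = 0.0262). Eomes, a T-box factor of the streak, read 258 and 217 in ES and 2158 and 741 in EB4 (log2 change 2.41 ± 0.49, adjusted p = 0.0254). Neither gene overlapped between stages, and both were higher in EB4 replicate 1. Without EB4 replicate 2 Eomes was called and Lhx1 was not, and with any other library left out neither was called. Mixl1 read 12.5 and 12.2 in ES and 328 and 48.5 in EB4 (adjusted p = 0.127), T, which encodes brachyury, 169 and 62.9 in ES and 645 and 134 in EB4 (adjusted p = 0.455), and Fgf8 25.7 and 25.0 in ES and 394 and 40.8 in EB4 (adjusted p = 0.31). The list summed to 1097 and 997 normalised counts in ES and to 5407 and 1741 in EB4. Cdx1, a caudal homeobox gene, went the other way, with 87.2 and 114 in ES and 21.0 and 15.3 in EB4 (adjusted p = 0.0537).

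Endoderm, trophoblast and neural genes were mostly not called, as held for all genes tested (2.51% were called up and 0.992% down). Of 16 endoderm genes only Lama1, a laminin chain of basement membranes, passed the test, and it fell. Of these 16 genes 12 had a positive change, as had 7897 of the 16124 genes tested, with a median of 0.26. Lama1 read 2812 and 2192 in ES and 521 and 413 in EB4 (log2 change -2.42 ± 0.52, adjusted p = 0.0302), without overlap. Foxa2, a definitive endoderm factor, read 9.96 and 20.7 in ES and 161 and 28.1 in EB4 (adjusted p = 0.113) and Gata6 read 13.3 and 16.4 in ES and 75.9 and 40.8 in EB4 (adjusted p = 0.0564). Gata6 had no overlap between the stages. None of 9 tested trophoblast genes was called, though 7 had a positive change and the median was 0.60. Gata3 read 34.9 and 27.9 in ES and 88.8 and 121 in EB4 (adjusted p = 0.24) and Cdx2 49.0 and 32.9 in ES and 18.7 and 7.66 in EB4 (adjusted p = 0.486), in opposite directions. Of 18 tested neural genes only Tubb3, a neuronal tubulin that ESCs also express, was called, and it fell, with 4005 and 3991 in ES and 1439 and 1932 in EB4 (log2 change -1.26 ± 0.27, adjusted p = 0.0284, 0.0539 after the correction). Pax6, a neural progenitor factor, read 271 and 179 in ES and 123 and 131 in EB4 and did not pass (adjusted p = 0.456). These EBs had not yet received retinoic acid.

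Fibroblast markers, which report feeder cells, gave no call among 18 tested genes, where 3.50% of all genes were called. Their summed level was 5857 and 2069.8 in ES and 3162 and 2361 in EB4, and in ES replicate 1 Tagln alone gave 4783. The defining collagens were low throughout, with Col1a1 at 119 and 170.1 in ES and 173 and 145 in EB4 and Col3a1 at 8.30 and 11.4 in ES and 28.0 and 49.8 in EB4. Prrx1 was at 1.66 and 11.4 in ES and 15.2 and 14.0 in EB4. The list had a median change of 0.43. Its part in the calls was not tested. In bulk libraries fewer cells of a type and less RNA per cell cannot be told apart.

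The genes with the largest falls had varied roles. Inhbb, the beta-B subunit of activin and inhibin (chr1:121312042-121318825), read 795 and 1364 in ES and 17.5 and 97.0 in EB4 (log2 change -4.61 ± 0.82, adjusted p = 0.0159). Mras, a RAS-family GTPase (chr9:99285841-99337300), read 772 and 983 in ES and 15.2 and 80.4 in EB4 (log2 change -4.59 ± 0.78, adjusted p = 0.0136). Both genes had EB4 replicate 1 below replicate 2 by about 5-fold, with all EB4 values far under ES. Tgm1, a transglutaminase that cross-links the envelope of keratinocytes, read 1250.2 and 1181 in ES and 50.2 and 85.5 in EB4 (log2 change -4.19 ± 0.61, adjusted p = 0.0069). Krt17 and Krt42, type I keratins that lie on chromosome 11, read 931 and 776 in ES and 36.2 and 95.7 in EB4 and 1190.4 and 1003 in ES and 46.7 and 153 in EB4. Their changes were -3.83 ± 0.61 (SE) (adjusted p = 0.0106) and -3.67 ± 0.72 (SE) (adjusted p = 0.0222), and as members of a gene family their reads may be shared with related keratins. Cltb, a clathrin light chain (chr13:54693762-54712705), read 1265 and 1780.4 in ES and 137 and 175 in EB4. It had the smallest standard error of these genes (log2 change -3.27 ± 0.26, adjusted p = 0.00036) and was called with any of the 4 libraries left out. Tfeb, a master regulator of lysosome genes, read 834 and 1209 in ES and 111 and 131 in EB4 (log2 change -3.05 ± 0.36, adjusted p = 0.00376). Pcolce, an enhancer of procollagen processing, read 2055 and 2546 in ES and 340.0 and 277 in EB4 (log2 change -2.89 ± 0.54, adjusted p = 0.0182) and overlaps Fbxo24 on the annotation.

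A pair of microRNA genes, Mir5109 and Mir5102, fell as well. Mir5109 read 529.6 and 426 in ES and 19.9 and 3.83 in EB4 (log2 change -5.57 ± 0.77, adjusted p = 0.00582) and Mir5102 2498 and 1884 in ES and 465 and 205 in EB4 (log2 change -2.81 ± 0.65, adjusted p = 0.0368). Libraries of polyadenylated RNA do not measure mature microRNAs, so these are counts of reads that fell on the annotated hairpins. Mir5102 lies within Fgfr2, on the opposite strand.

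By difference in counts the largest falls were those of 5 genes with high levels. Actn4, a cross-linker of actin filaments, read 27257 and 26044 in ES and 17172 and 16567 in EB4 (log2 change -0.66 ± 0.16, adjusted p = 0.0474, 0.0618 after the GC and length correction). Sgk1, a kinase that responds to serum, read 15272 and 11206 in ES and 3736 and 4918 in EB4 (log2 change -1.61 ± 0.38, adjusted p = 0.0418). E130012A19Rik read 10497 and 11916 in ES and 3543 and 2422 in EB4 (log2 change -1.93 ± 0.33, adjusted p = 0.0136). Slc29a1, an equilibrative nucleoside transporter, read 11894 and 10033 in ES and 3421 and 3639.6 in EB4 (log2 change -1.63 ± 0.20, adjusted p = 0.00376). Gpx1, a glutathione peroxidase, read 9068 and 9895 in ES and 2362 and 1997 in EB4 (log2 change -2.12 ± 0.43, adjusted p = 0.0245, 0.0541 after the correction). The absence of overlap between ES and EB4 was a condition for naming these 5.

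Among 20 tested cell cycle genes Rb1 rose and Ccne1 and Cdk2 fell (2.51% of all genes up and 0.992% down). In 17 of 20 the EB4 mean was the lower, as in 8193 of the 16124 genes tested, with a median change of -0.60. Ccne1, the cyclin that drives entry into S phase, read 10169 and 9100.5 in ES and 4059.7 and 4091 in EB4 (log2 change -1.24 ± 0.28, adjusted p = 0.0334, 0.0623 after the correction). Cdk2, its kinase, read 3266 and 3932 in ES and 1848 and 2349 in EB4 (log2 change -0.78 ± 0.17, adjusted p = 0.0316). Rb1, the retinoblastoma protein that this kinase inactivates, read 481 and 568 in ES and 1159 and 1674 in EB4 (log2 change 1.41 ± 0.32, adjusted p = 0.0339, 0.0842 after the correction). Cdkn1b, an inhibitor of the same kinase, read 1033 and 716 in ES and 1879.7 and 1485 in EB4 (adjusted p = 0.0762). Myc and Mycn were not called, with Mycn at 10401 and 6509.6 in ES and 5109 and 3301 in EB4 (adjusted p = 0.14). Among 14 p53 targets only Bax, a pro-apoptotic gene, was called, and it fell, with 7528 and 8148 in ES and 4727 and 4636 in EB4 (log2 change -0.74 ± 0.15, adjusted p = 0.0259). After the GC and length correction its change was -0.24 with an adjusted p of 0.686.

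Sterol synthesis genes gave no call among 16, where 3.50% of all genes were called. All 16 had a negative change, as had 8193 of the 16124 genes tested, with a median of -0.26. In 8 of 16 both EB4 values lay below both ES values (28.2% of all genes). The change of Cyp51, 1 of the 16, was -0.007 in the main fit and 0.014 in edgeR. Mvd, a step of the mevalonate pathway, read 1498 and 1514 in ES and 755 and 984 in EB4 (adjusted p = 0.114). Of 15 genes of the amino acid response only Vldlr, described above, was called, and Asns, asparagine synthetase, read 7060.4 and 6447 in ES and 8184 and 12636 in EB4 (adjusted p = 0.363). Of 22 genes of adhesion and basement membrane only Lama1 was called. Cdh1, which encodes E-cadherin, read 17594 and 15404 in ES and 19488 and 20226 in EB4 (adjusted p = 0.806) and Vim, vimentin, 2055 and 3616 in ES and 1851 and 1491 in EB4 (adjusted p = 0.142). TFIID genes were not called, over 17 identifiers with a median change of -0.12. Taf4b, the paralogue of Taf4a, read 1490.1 and 1479 in ES and 1173 and 1266 in EB4 (adjusted p = 0.496), and Taf8 read 1635 and 1466 in ES and 995 and 1109 in EB4 (adjusted p = 0.0835). None of 17 tested genes of the germline and of the cleavage stage was called. Tex19.1, a germline gene that ESCs express, read 4109 and 6237 in ES and 2370.4 and 3224 in EB4 (adjusted p = 0.21).

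The same step was then set beside WT cells, which share no library with the Taf4a-/- cells. Both changes were tested in 1 fit with 1 estimate of the spread per gene. A gene of small spread is thus favoured for a call in both genotypes, and the 2 sets of calls are not independent. Over the step 2668 genes were called in WT (1448 up and 1220 down), which is 16.5% of the genes tested. Of the 564 genes called in Taf4a-/- cells 428 were called in WT too, all in the same direction, 321 up and 107 down. That is 75.9% of the Taf4a-/- calls and 16.0% of the WT calls. Of the other 136 genes 126 had a WT change of the same sign and 10 of the opposite sign. Of the 2240 genes called only in WT 2060 had a Taf4a-/- change of the same sign. Over the genes called in WT the median size of the change was 1.28 in WT, where they were selected, and 0.648 in Taf4a-/- cells. Across all genes tested the changes of the 2 genotypes had a Pearson r of 0.544, and genes are not independent replicates.

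The test of the difference between the 2 changes called no gene. In limma its count was 0, with 1129 genes at an unadjusted p under 0.05 (7.00%), and the smallest adjusted p was 0.357. edgeR also gave 0, with 1198 at an unadjusted p under 0.05, and DESeq2 gave 112 (0.723%), with 1418. No gene is therefore said to differ in its change between genotypes, and the values below stand side by side. Dnmt3a, called in Taf4a-/- cells, read 7843 and 8579 in ES and 9125 and 5962 in EB4 in WT, a change of -0.15 against 1.33 (adjusted p of the difference 0.357). Dnmt3l read 11536 and 13850.4 in ES and 1185 and 1811 in EB4 in WT, where it fell (log2 change -3.11, adjusted p = 0.0025), against 0.06 in Taf4a-/- cells (adjusted p of the difference 0.357). Capn6 read 41.9 and 166 in ES and 42.7 and 65.4 in EB4 in WT (log2 change -0.65, adjusted p of the difference 0.422). Lifr read 1593 and 1393 in ES and 952 and 902 in EB4 in WT, where it fell by 0.68 on the log2 scale (adjusted p = 0.0171), and the adjusted p of the difference was 0.357. Dppa5a, a small RNA-binding protein of pluripotent cells, read 18548 and 23607 in ES and 13035 and 26039.7 in EB4 in Taf4a-/- cells and 13360.3 and 38420.3 in ES and 3718 and 1764 in EB4 in WT (adjusted p of the difference 0.484).

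In WT cells 9 of the 14 naive genes, 3 of the 10 core genes and 1 formative gene fell, while 8 formative genes and 13 of the 22 hypoxia and glycolysis genes rose, beside 7.57% of genes down and 8.98% up. The median change of the naive list was -1.89 in WT and -0.71 in Taf4a-/- cells. For the core list it was -1.21 and -0.25, and for the hypoxia and glycolysis list 1.36 and 1.38. No member of these lists passed the test of the difference. Esrrb read 7375 and 13418 in ES and 3449 and 2053 in EB4 in WT (log2 change -1.90, adjusted p = 0.00375) and changed by -0.55 in Taf4a-/- cells. Nanog read 6242 and 22357 in ES and 6388 and 3465 in EB4, and the WT ES replicates differed more than 3-fold. The replicates of WT ES differed by a median of 0.437 on the log2 scale, against 0.246 in Taf4a-/- ES. WT ES replicate 2 also stood high in X-linked genes, at 0.427, while both WT EB4 libraries stood low, at -0.269 and -0.186.

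**Figure D4:**
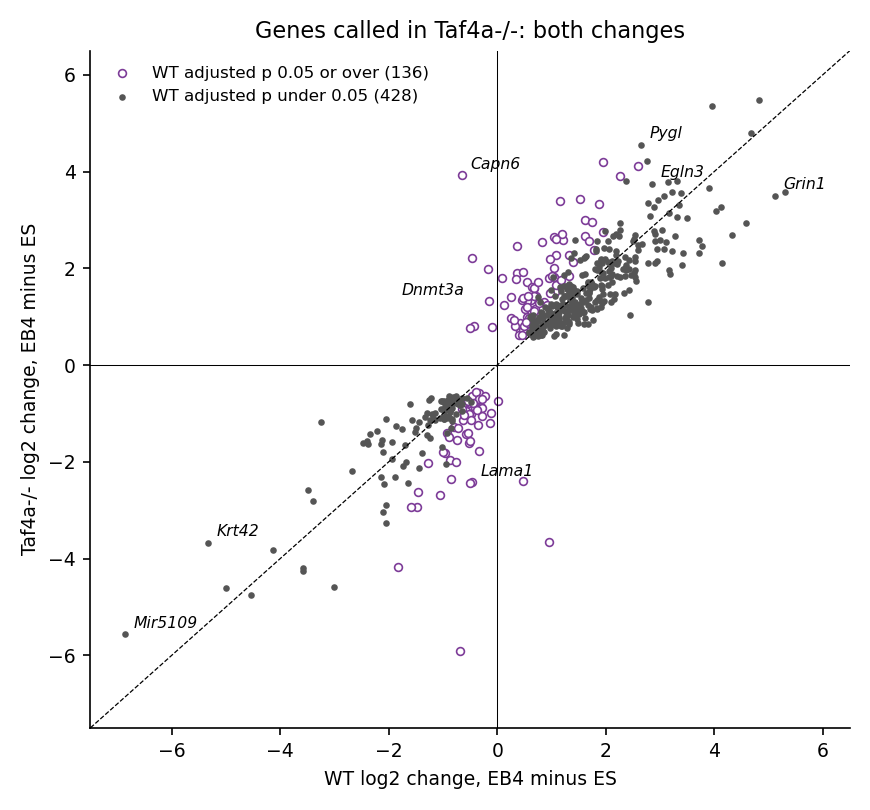
Log2 change from ES to EB4 in WT (horizontal axis) and in Taf4a-/- cells (vertical axis) for the 564 genes called in Taf4a-/- cells, with equal changes on the dashed line. Filled points are the 428 genes also called in WT and open points the other 136. The filled points and 126 of the open points have the same sign on both axes. Capn6 (3.92 against -0.65) and Dnmt3a (1.33 against -0.15) are among the 10 of opposite sign, and neither passed the test of the difference.

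The later Taf4a-/- stages show whether the EB4 levels persisted, given here as values without a test. Fgf5 returned to low counts, with 198 and 98.9 at EB5 and 124 and 138 at EB8, and Otx2 with 1029 and 536 at EB5 and 111 and 132 at EB8. Dnmt3a read 8119 and 7578 at EB5 and 4175 and 4881 at EB8, below both EB4 values. The hypoxia genes were still high at EB5 and varied between the EB8 replicates. Egln3 read 3918 and 3667 at EB5 and 2392 and 770.2 at EB8 and Bnip3 8157 and 9520.4 at EB5 and 7716 and 2708 at EB8. Pgk1 read 30574 and 44885 at EB5 and 20525 and 14069.7 at EB8. In EB8 replicate 1 was above replicate 2 for each of Egln3, Bnip3 and Pgk1. Stat3 read 1151 and 1359 at EB5 and 2925 and 2459 at EB8, so that its EB8 values were again above EB4. Klf5 read 902 and 624 at EB5 and 774 and 457 at EB8 and did not return to the ES level. Nanog read 9428 and 13846 at EB5 and 7989 and 8408 at EB8 and Pou5f1 5628 and 10036 at EB5 and 3218 and 3690.0 at EB8. Pygl, in contrast to Fgf5, read 971 and 1162 at EB5 and 2179 and 1142 at EB8, at or above its EB4 counts in each library.

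**Figure D5:**
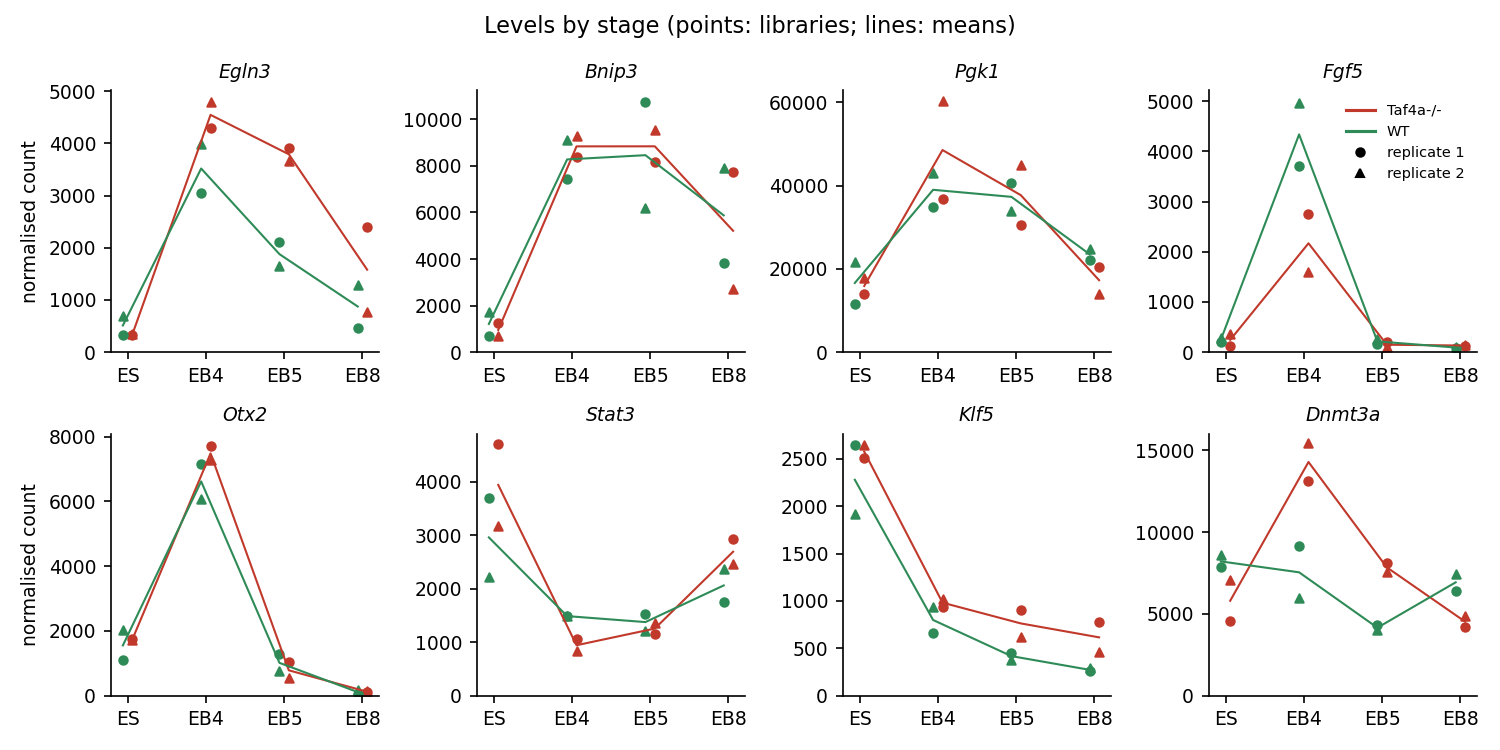
Normalised counts of 8 genes at ES, EB4, EB5 and EB8, with points for libraries (circles replicate 1, triangles replicate 2) and lines through the means, in red for Taf4a-/- and green for WT. In Taf4a-/- cells Fgf5 and Otx2 peak at EB4, Dnmt3a has its highest values there (13149.8 and 15429.9), and Stat3 has its lowest (1050.3 and 836).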

How the data were processed

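Polyadenylated RNA of 16 mouse libraries, 8 groups of 2, was sequenced as single-end 54-base reads. Per the labels and the submitters' processing notes, reads were processed with CASAVA 1.7 and 1.8, TopHat2 2.0.10, HTSeq 0.5.4p3 and DESeq2 1.0.19, with build mm9, and the use of strand is not given in the sources used here. The authors scaled the read count of each gene by a DESeq2 size factor, and the table deposited holds this scaled signal, called the normalised count here. Dividing by the value of 1 read, found separately for every library, turned 100% of the entries into whole reads (within 0.001 reads), with totals from 22442118 to 40711826. Precision is limited by depth in genes of low count.

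Because the values are normalised, the main test was limma 3.58.1 (R 4.3.3) on log2(normalised count + 1), with 8 group means over all 16 libraries, so that the spread of a gene is shared by the groups, and eBayes with trend (8 residual degrees of freedom, 4.27 prior). On that scale the changes of low genes are understated. Genes with a mean of at least 10 were tested, p-values were adjusted by the Benjamini-Hochberg method over all 16124, and 0.05 was the threshold. The contrasts were EB4 against ES in Taf4a-/- cells, the same in WT, and their difference. p-values measure the spread between the 2 libraries of each group, which may hold line and technical differences together.

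Genes named in the text are members of 22 lists, the 10 largest rises and 10 largest falls on the log2 scale and the 5 largest of each in counts, among genes that passed the test with a mean of at least 100 over the 4 libraries and no overlap of stages. The comparison, lists and rules were chosen with earlier results of these data known. Some list names were matched through RefSeq synonyms. Gene positions are from GENCODE M1 (NCBI37), in which 27603 of 27807 identifiers were found, and promoters are from RefSeq (GRCm38.p6). Alternatives were edgeR 4.0.16 and DESeq2 1.42.0 on recovered reads, other pseudocounts, filters and scalings, fits of fewer libraries, the replicate number as a block, each library left out, and, added after the data were seen, a loess correction for GC content and length. The fitting step was tested on simulated data.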

Additional observations from a re-analysis of the deposited data

How the results depend on the processing

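The number of genes called between Taf4a-/- ES and EB4 depended on how the spread was estimated. None of the 53 named genes that were called changed direction under any alternative. The fits with 1 library left out could not reverse a gene whose stages did not overlap. Among genes not called, a change near 0 could change sign, as that of Dnmt3l, 0.06 with all libraries, which was -0.28 without ES replicate 1 and -0.26 without EB4 replicate 2. The 564 calls became 310 without a filter on low values, 361 after quantile normalisation, 23 when only the 4 libraries were fitted, 911 with the 8 Taf4a-/- libraries, 283 after the correction for GC content and length (602 on the same genes without it), 1690 in DESeq2 and 52 at an adjusted p under 0.01. Leaving out 1 Taf4a-/- library gave between 2 and 81 calls, and with 1 library in a group the lone library is assumed to vary like the others. The 2668 WT calls became 0 when only the 4 WT libraries were fitted, 1359 with the 8 WT libraries, 1724 when a log2 change of at least 1 was required and 844 at an adjusted p under 0.01. Leaving out 1 WT library gave between 1289 and 2180. For the difference between genotypes the 0 calls became 112 in DESeq2, and between 0 and 38 with 1 library left out, the highest without WT ES replicate 1. The cause of these shifts was not tested.

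The replicate number may or may not stand for a line. The difference between replicates 1 and 2 correlated across genes between Taf4a-/- ES and EB4 with an r of 0.389, and between all pairs of Taf4a-/- stages with 0.233 to 0.422, while WT ES against the later WT stages gave -0.179 to -0.048 and the WT EB stages among themselves 0.523 to 0.605. With the replicate number as a block within genotype 1291 genes were called in Taf4a-/- cells and 8 for the difference between genotypes, and 26 named genes that had not been called were called. Hypoxia and glycolysis genes then rose in 16 cases in place of 8, and 4 naive genes fell in place of 1, among them Klf4 (adjusted p = 0.0384 in limma). Over all genes tested 807 rose in place of 404 and 484 fell in place of 160, so that the increase was not particular to these lists. With the 8 libraries of a genotype the block gave 3103 Taf4a-/- and 1727 WT calls. The block together with the correction for GC content and length gave 7 calls for the difference. Of the 53 named genes that were called, all 53 were called with the block, 52 in edgeR, 53 in DESeq2, 38 after quantile normalisation, 10 when only the 4 libraries were fitted and 36 of the 51 with a GC value after the correction.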

Other observations

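Called genes were spread unevenly over gene length and GC content. Genes were put in 4 equal bins of each. In the bin of longest transcripts 6.00% rose and 0.300% fell between Taf4a-/- ES and EB4, while in the bin of shortest transcripts 0.817% rose and 1.66% fell. The median change ran from -0.23 in the shortest to 0.25 in the longest bin in Taf4a-/- cells and from -0.25 to 0.25 in WT. In the bin of highest GC content 1.12% rose and 2.70% fell, and in the lowest 3.05% rose and 0.136% fell. The median change in the bin of highest GC content was -0.07 from ES replicate 1 to EB4 replicate 1 and -0.36 from ES replicate 2 to EB4 replicate 2.

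Chromosome X held 8 of the genes that rose and none that fell, among 613 tested. The corresponding counts on chromosome 11 were 25 and 12, among 1338. Over all chromosomes they were 404 (2.51%) and 160 (0.992%), among 16124.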
